A study of Mus musculus with 15 samples.

Results

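The methionine cycle and transsulfuration enzymes are described here through 10 genes (Bhmt, Bhmt2, Mat1a, Gnmt, Ahcy, Cbs, Cth, Pemt, Mtr and Sardh), picked by symbol from the 21878 genes of the deposited table. The table held poly(A)-selected RNA sequencing of liver from male C57BL/6J mice, 8 weeks old and with no genetic change given in the labels, taken 1 day after a single intraperitoneal injection. The saline group received normal saline. The cisplatin group received 10 mg/kg of cisplatin, a platinum compound that crosslinks DNA, from a 1 mg/mL solution in saline. The doxorubicin group received 10 mg/kg of doxorubicin, an anthracycline that poisons topoisomerase II, from a 2 mg/mL solution in sterile water. Vehicle and strength of the solution differed between the drugs and cannot be told apart from them. Each group held 5 libraries, numbered in the labels. The number of the last doxorubicin column could not be matched to a label, so it is called the unnumbered doxorubicin library. A remark in the series' design text says that doxorubicin treatment is not recorded for the samples, while the sample labels and the design's own key name it, and the sample labels were followed.

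In the liver, methionine is activated to S-adenosylmethionine, the general methyl donor of the cell. After the methyl group is used, the remaining S-adenosylhomocysteine is split to homocysteine. Homocysteine is either methylated back to methionine, with betaine or methyltetrahydrofolate as donor, or passed through transsulfuration to cysteine, the source of glutathione, taurine and sulfide. Liver is the main site of these reactions and makes several of the enzymes at very high levels.

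Values are FPKM, fragments scaled to gene length and library size, so levels can be set side by side between genes on this per-length scale. Differences between groups are given on the log2(FPKM + 1) scale with the standard error (SE) of a limma fit over all 3 groups. A gene is said to rise or fall where the two-sided p, adjusted by Benjamini-Hochberg over the 10552 genes tested, was below 0.05. All 10 members passed the filter of at least 1 FPKM in at least 5 libraries. The libraries held 25.3 to 34.7 M reads (M, mega) assigned to genes in the saline and cisplatin groups and 37.6 to 50.7 M in the doxorubicin group, so depth was confounded with doxorubicin. Mtr rested on 287 to 611 reads per library, for which counting error alone is up to 5.9%. The other 9 members had at least 5485 reads in each library. Saline 2 stood apart from its group: it held the highest or lowest saline value in 73% of tested genes, against 23.9 to 42.4% in the other saline libraries. It was the lowest saline library for 6 of the 10 members, and for members whose values it moved, results are also given without it.

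After doxorubicin, 5 of the 10 members fell and 0 rose, namely Bhmt, Cth, Ahcy, Gnmt and Sardh. Over all tested genes, 17.2% fell, 14.4% rose and 31.6% changed in either direction in that comparison. The groups did not overlap for 4 of the 5, where 22.0% of all genes had groups apart, 11.5% with doxorubicin lower and 10.5% with it higher. The median difference of the 10 members was -0.45, against -0.04 over all tested genes. After cisplatin 1 of the 10 members rose, Bhmt2, and 0 fell, where 11.1% of all tested genes changed, 6.08% higher and 5.0% lower. Groups were apart in 9.71% of all genes there, 5.33% higher and 4.39% lower after cisplatin. The median difference of the members after cisplatin was -0.02 and that of all tested genes -0.01. Between the drugs, 6 members were lower after doxorubicin than after cisplatin and 0 were higher, where 11.4% of all genes were lower, 9.0% higher and 20.4% differed. All 6 had groups apart, against 16.3% of all genes, 9.45% lower and 6.9% higher. These 6 were the 5 genes named above and Bhmt2. The drug comparisons with saline share the saline libraries.

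**Figure D1:**
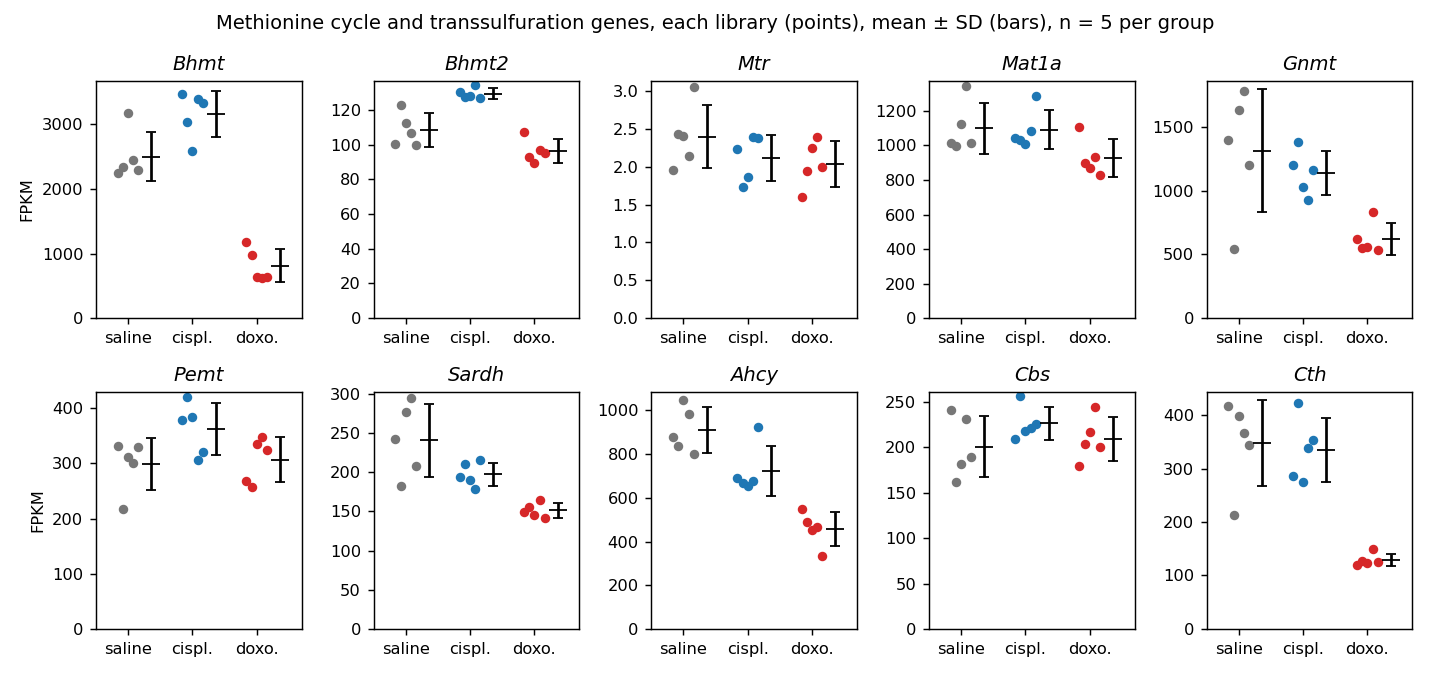
Level of each member in FPKM (vertical axes, each from 0) in the 15 libraries, grouped as saline, cisplatin and doxorubicin; points are libraries, and the bar beside them is the mean with the SD (n = 5). Bhmt, Ahcy, Cth and Sardh were lower in all 5 doxorubicin libraries than in any saline library. Bhmt2, Mat1a, Gnmt, Cbs, Pemt and Mtr overlapped between these groups.

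In saline livers Bhmt was the most abundant member at 2498 ± 383 FPKM (mean ± SD, n = 5), ranking 20 to 32 among all genes of a library. Gnmt (1314 ± 482), Mat1a (1098 ± 148) and Ahcy (910 ± 104) followed, and the ranges of neighbours in this order overlapped. Below a gap came Cth (348 ± 80.2), Pemt (298 ± 47.1), Sardh (241 ± 46.6) and Cbs (201 ± 33.7), again with overlapping neighbours. Bhmt2 was lower at 108 ± 9.54 FPKM, and Mtr, at 2.40 ± 0.418 FPKM, was lower than every other member in every library. After doxorubicin the order changed at the top. There Mat1a (927 ± 108 FPKM) had the highest mean and Bhmt (814 ± 255) the next, with overlapping ranges. The sum of the 10 members was 5619 to 8256 FPKM in the saline libraries, 6475 to 7943 after cisplatin and 3222 to 4286 after doxorubicin. Bhmt made up on average 35.8% of that sum after saline, 42.8% after cisplatin and 21.7% after doxorubicin.

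Homocysteine is remethylated to methionine by 3 members. Bhmt codes for betaine-homocysteine methyltransferase, which takes the methyl group from betaine. Bhmt2 codes for a related methyltransferase that uses S-methylmethionine, and Mtr for methionine synthase, which uses methyltetrahydrofolate and vitamin B12. Bhmt (chromosome 13, 93616891 to 93637758, GRCm38) and Bhmt2 (chromosome 13, 93656097 to 93674302) are protein-coding neighbours on the same strand, 18.3 kb apart. Windows of 250 bases before a RefSeq start were read for Bhmt, Bhmt2, Gnmt and Cbs, and their bases outside the gene itself are shown. Left out are 203 bases of the Bhmt window and 33 of the Cbs window that are exon of the same gene in GENCODE release M21, and 46 of the Gnmt window that lie within the RefSeq gene, which has an earlier start. These were picked after the values were seen, as 2 genes that fell after doxorubicin and 2 that did not pass the test. All are on the minus strand of GRCm38.p6 (RefSeq) and are written 5′ to 3′ toward the start, with CpG dinucleotides in capitals.
Bhmt, chr13:93637962-93638008: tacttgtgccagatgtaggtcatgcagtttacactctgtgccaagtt
Bhmt2, chr13:93674303-93674552: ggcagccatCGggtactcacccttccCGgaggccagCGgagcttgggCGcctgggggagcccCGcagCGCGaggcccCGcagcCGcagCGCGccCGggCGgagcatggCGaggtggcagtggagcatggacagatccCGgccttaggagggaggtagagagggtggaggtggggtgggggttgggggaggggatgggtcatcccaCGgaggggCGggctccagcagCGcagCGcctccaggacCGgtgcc
Gnmt, chr17:46729212-46729415: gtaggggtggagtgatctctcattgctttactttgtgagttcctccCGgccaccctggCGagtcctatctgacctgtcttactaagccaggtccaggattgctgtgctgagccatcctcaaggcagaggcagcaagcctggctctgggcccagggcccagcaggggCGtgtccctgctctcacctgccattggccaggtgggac
Cbs, chr17:31637239-31637455: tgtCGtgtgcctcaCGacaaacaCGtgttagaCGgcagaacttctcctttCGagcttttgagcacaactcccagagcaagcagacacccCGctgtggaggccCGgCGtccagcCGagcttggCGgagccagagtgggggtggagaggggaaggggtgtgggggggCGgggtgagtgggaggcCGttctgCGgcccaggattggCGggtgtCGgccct

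Counted over the whole windows, Bhmt held 5 CpG dinucleotides and 48.0% G and C, and Bhmt2 held 20 and 74.0%. All 5 CpG of Bhmt lie in the 203 bases left out above as exon of the same gene, as does its CCAAT match counted below. The Bhmt2 window includes 100 bases of an exon of Dmgdh on the opposite strand. Gnmt had 6 CpG and Cbs 21, in both partly in the bases left out above. Promoter windows were found for 8 members. The window of Sardh and both windows of Pemt lie wholly within their own RefSeq gene, as do 86 bases of the Mtr window. Their counts are thus in whole or in part those of sequence inside the gene. Of those that fell after doxorubicin, Sardh had 3 and Ahcy 9 CpG. Of those that did not pass that test, Mtr had 20, and the 2 windows of Pemt had 1 and 2. Among 32851 annotated windows of this length the median was 6 CpG, and 37.8% held at least 10. On either strand, the letters CCAAT were in the windows of 6 of the 8 members (Bhmt, Gnmt, Ahcy, Cbs, Mtr and Pemt) and in 33.8% of all windows. The letters GGGCGG were in those of 4 (Ahcy, Bhmt2, Cbs and Mtr) and in 32.7% of all windows. Both motifs thus occurred in members that fell after doxorubicin and in members that did not pass that test. TATAAA was in 0 of the 8 and in 12.4% of all windows.

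Bhmt was at 2241, 2341, 3168, 2450 and 2288 FPKM in saline 1 to 5 and at 3461, 3029, 2586, 3393 and 3322 in cisplatin 1 to 5. After doxorubicin it was at 1184, 978, 642 and 629 FPKM in libraries 1 to 4 and at 635 in the unnumbered library. All doxorubicin libraries lay below all others, and within the group libraries 1 and 2 were the highest. The mean after doxorubicin was 0.326 of the saline mean, a log2 difference of -1.66 ± 0.17 (SE, limma adjusted p = 2.48e-06), and Bhmt fell in each of the 27 alternative settings as well. Compared with cisplatin it was different by -2.0 ± 0.17 (limma adjusted p = 1.17e-06). The cisplatin mean of 3158 ± 359.8 FPKM was 1.26 times the saline mean, but the groups overlapped and the difference of 0.34 ± 0.17 did not pass (limma adjusted p = 0.221, 95% interval -0.02 to 0.70).

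Bhmt2 was at 101, 123, 112, 107 and 99.5 FPKM in saline 1 to 5, and at 130.4, 128, 128, 134 and 127 in cisplatin 1 to 5. After doxorubicin it was at 107, 92.9, 89.2 and 97.2 FPKM in libraries 1 to 4 and 95.04 in the unnumbered one. The cisplatin values were narrowly spread (SD 3.14) and lay above all saline and all doxorubicin values, while saline and doxorubicin overlapped. Bhmt2 rose after cisplatin by 0.26 ± 0.08 (limma adjusted p = 0.0411), a mean 1.19 times that of saline. This call ended in 16 of 27 alternative settings, with adjusted p up to 0.109. Among them were the fits without any 1 of the 5 cisplatin libraries, without saline 1, 3, 4 or 5, and without doxorubicin 2 or 4. After doxorubicin the difference from saline was -0.17 ± 0.08 and did not pass (limma adjusted p = 0.11, 95% interval -0.33 to -0.004). Doxorubicin was below cisplatin by -0.42 ± 0.08 (limma adjusted p = 0.000941).

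The ratio of Bhmt to Bhmt2, a comparison added after the values were seen, was 19.1 to 28.2 in the saline libraries, 20.2 to 26.5 after cisplatin and 6.47 to 11.01 after doxorubicin. The log2 ratio differed by -1.49 ± 0.19 (SE) between doxorubicin and saline. The exact two-sided permutation p was 0.00794, the smallest that 5 against 5 libraries can give, and 0.0119 after adjustment over the 6 ratio tests. As the pair was picked with the separate groups of Bhmt already seen, this p adds no separate evidence to the Bhmt difference. Between cisplatin and saline the log2 ratio differed by 0.08 ± 0.12 (exact permutation p = 0.484). The annotated transcripts of the 2 genes share 10 stretches of 50 bases. Of the 50-base stretches of Bhmt, 25.3% also occur in other annotated transcripts, chiefly those of Gm5096, so part of its reads may be shared. This share is over all annotated Bhmt transcripts, with 1454 of 5755 stretches shared. The FPKM values of Bhmt fit a counted length of 2071 bases. The share within the counted sequence is thus not known and may be larger, and the level of Bhmt is uncertain. Annotated genes on the opposite strand overlap Bhmt (Gm15622), Gnmt (Gm26904), Ahcy (Gm45609) and Sardh (Sardhos), and Gm43314 overlaps Cth on its own strand. The strand setting of the counting is not given in the sources used here, so reads of the opposite-strand pairs cannot be told apart. Reads of Cth and Gm43314 would not be separated by strand under any setting. None of these overlapping genes is listed in the deposited table.

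Mtr (chromosome 13, 12181331 to 12258199) ranged from 1.96 to 3.06 FPKM after saline, 1.73 to 2.39 after cisplatin and 1.60 to 2.40 after doxorubicin, and the 3 groups overlapped. Its differences from saline were -0.12 ± 0.10 after cisplatin and -0.16 ± 0.10 after doxorubicin (limma adjusted p = 0.502 and 0.253). The 95% interval after doxorubicin ran from -0.38 to 0.06. On this scale the added 1 FPKM shrinks the differences of Mtr, whose level is near 2 FPKM, but with an added 0.1 FPKM neither difference passed.

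Methionine is activated by the product of Mat1a, the liver form of methionine adenosyltransferase (chromosome 14, 41105012 to 41124428). It was at 995 to 1346 FPKM after saline, 1008 to 1284 after cisplatin and 829.0 to 1107 after doxorubicin, and the groups overlapped. The difference after cisplatin was -0.01 ± 0.11 (limma adjusted p = 0.981, 95% interval -0.23 to 0.22). After doxorubicin it was -0.24 ± 0.11 (limma adjusted p = 0.0964). That difference passed without doxorubicin 1 (adjusted p = 0.0388) and with quantile normalization (0.0429). Without saline 2 it was -0.28 (0.0658), and the cisplatin difference was -0.04 (0.884).

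The methyl group of S-adenosylmethionine is used by Gnmt and Pemt, among others. Gnmt codes for glycine N-methyltransferase, which turns glycine into sarcosine and so disposes of surplus methyl groups (chromosome 17, 46725664 to 46729211). It was at 1402, 546, 1631, 1784 and 1206 FPKM in saline 1 to 5, at 1205, 1382, 1031, 928 and 1166 in cisplatin 1 to 5, and at 621, 554, 555 and 835 in doxorubicin 1 to 4 with 535 in the unnumbered library. Every doxorubicin value lay below every cisplatin value, and saline 2 fell among the doxorubicin values while the other 4 saline libraries lay above them. Gnmt fell after doxorubicin by -0.99 ± 0.25 (limma adjusted p = 0.00563), to 0.472 of the saline mean. Without saline 2 the difference was -1.28 (adjusted p = 9.74e-06). Doxorubicin was also below cisplatin, by -0.89 ± 0.25 (limma adjusted p = 0.0172). The difference between cisplatin and saline was -0.11 ± 0.25 (limma adjusted p = 0.836), and -0.40 without saline 2 (0.104).

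Pemt, whose product methylates phosphatidylethanolamine to phosphatidylcholine (chromosome 11, 59970614 to 60046561), was at 217 to 332 FPKM after saline, 307 to 420.0 after cisplatin and 258 to 349 after doxorubicin. The groups overlapped. Its difference from saline was 0.28 ± 0.13 after cisplatin (limma adjusted p = 0.183) and 0.05 ± 0.13 after doxorubicin (0.819, 95% interval -0.23 to 0.32). Without saline 2 the differences were 0.18 after cisplatin (adjusted p = 0.371) and -0.06 after doxorubicin (0.704).

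Sardh codes for the mitochondrial sarcosine dehydrogenase, which demethylates the product of Gnmt (chromosome 2, 27188393 to 27248332). It was at 242, 183, 277, 295 and 208 FPKM in saline 1 to 5, at 179 to 215 after cisplatin, and at 149, 156, 145, 165 and 142 after doxorubicin. The doxorubicin libraries lay below all others. Sardh fell after doxorubicin by -0.65 ± 0.11 (limma adjusted p = 0.000434), a mean 0.627 of that of saline. It was lower than after cisplatin by -0.38 ± 0.11 (limma adjusted p = 0.0258), a call that ended in 8 of 27 settings with adjusted p up to 0.123. These include the fits without cisplatin 2 (0.0569), cisplatin 5 (0.0659), doxorubicin 3 (0.0577) or the unnumbered doxorubicin library (0.053). After cisplatin the difference from saline was -0.27 ± 0.11 and did not pass (limma adjusted p = 0.154), but did without saline 2 (-0.36, adjusted p = 0.0283). The doxorubicin difference from saline was -0.74 without saline 2 (adjusted p = 3.83e-05).

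Ahcy codes for S-adenosylhomocysteine hydrolase, which removes the product that inhibits methyltransferases (chromosome 2, 155059310 to 155074497). It was at 879, 835, 1050, 986 and 802 FPKM in saline 1 to 5, at 692, 667, 654, 676 and 926 in cisplatin 1 to 5, and at 549, 487, 452 and 468 in doxorubicin 1 to 4 with 334 in the unnumbered library. Doxorubicin lay below both other groups without overlap, and 4 of the 5 cisplatin libraries lay below all saline libraries. Ahcy fell after doxorubicin by -1.001 ± 0.13 (limma adjusted p = 3.15e-05), to 0.503 of the saline mean, and was -0.66 ± 0.13 below cisplatin (0.00189). The difference of -0.34 ± 0.13 after cisplatin did not pass (limma adjusted p = 0.115). It passed without cisplatin 5, at -0.43 (adjusted p = 0.0411). The level of Ahcy is uncertain, since 68.7% of the 50-base stretches of its annotated transcripts also occur in other transcripts, chiefly those of the near-identical Gm4737. Gm4737 was listed at 92.7 to 199.8 FPKM after saline and 42.2 to 107 after doxorubicin, with a difference of -0.89 ± 0.25 (limma adjusted p = 0.0109). The call of Gm4737 ended in 1 of 26 settings, which leave out the threshold of 0.01, and it did not pass that threshold either. How reads that match both were counted is not given in the sources used here.

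**Figure D2:**
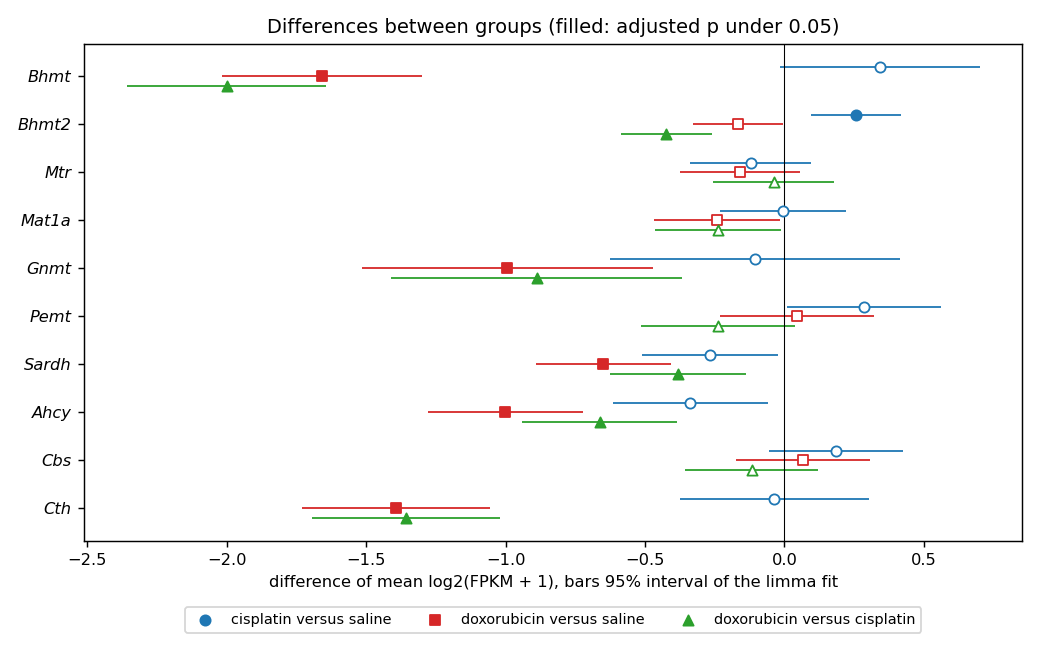
Difference of mean log2(FPKM + 1) (horizontal axis) of each member in the 3 comparisons, with the 95% interval of the limma fit as bars; filled markers have an adjusted p under 0.05. The doxorubicin differences of Bhmt (-1.66 and -2.0) and Cth (-1.39 and -1.36) are the farthest from 0 among these genes, and the cisplatin differences from saline lie between -0.34 and 0.34.

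Transsulfuration takes homocysteine to cystathionine through cystathionine beta-synthase, coded by Cbs, and cystathionine to cysteine through cystathionine gamma-lyase, coded by Cth. Cbs (chromosome 17, 31612623 to 31637233) was at 241, 162, 182, 232 and 189 FPKM in saline 1 to 5, at 209.8 to 257 after cisplatin, and at 180.0, 204, 217, 245 and 201 after doxorubicin. The 3 groups overlapped. Its difference from saline was 0.07 ± 0.11 after doxorubicin (limma adjusted p = 0.693, 95% interval -0.17 to 0.31) and 0.18 ± 0.11 after cisplatin (0.332). Without saline 2 the differences were 0.11 after cisplatin (adjusted p = 0.584) and -0.01 after doxorubicin (0.971).

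Cth (chromosome 3, 157894248 to 157925081) was at 418, 214, 398, 366 and 344 FPKM in saline 1 to 5 and at 286, 422, 275, 339 and 353 in cisplatin 1 to 5. After doxorubicin it was at 119.7, 127, 123 and 149.9 FPKM in libraries 1 to 4 and at 125 in the unnumbered one. The doxorubicin values lay close together and below all others, while saline and cisplatin overlapped. Cth fell after doxorubicin by -1.39 ± 0.16 (limma adjusted p = 8.21e-06), a mean 0.370 of that of saline, and lay -1.36 ± 0.16 below cisplatin (2.59e-05). The cisplatin difference from saline was -0.04 ± 0.16 (limma adjusted p = 0.92, 95% interval -0.37 to 0.30). Without saline 2 the differences were -1.56 after doxorubicin (adjusted p = 2.52e-07) and -0.20 after cisplatin (0.32).

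The ratio of Cth to Cbs, also added after the values were seen, was 1.32 to 2.19 in the saline libraries, 1.26 to 1.64 after cisplatin and 0.568 to 0.665 after doxorubicin. Cth was thus listed above Cbs in all saline and cisplatin libraries and below it in all doxorubicin libraries. The log2 ratio differed by -1.47 ± 0.13 (SE) between doxorubicin and saline (exact permutation p = 0.00794, adjusted 0.0119). It differed by -1.25 ± 0.08 between doxorubicin and cisplatin (exact permutation p = 0.00794, adjusted 0.0119). Between cisplatin and saline it differed by -0.22 ± 0.14 (exact permutation p = 0.143). As the separate groups of Cth were already seen, the doxorubicin p-values of this ratio add no separate evidence to the Cth differences.

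**Figure D3:**
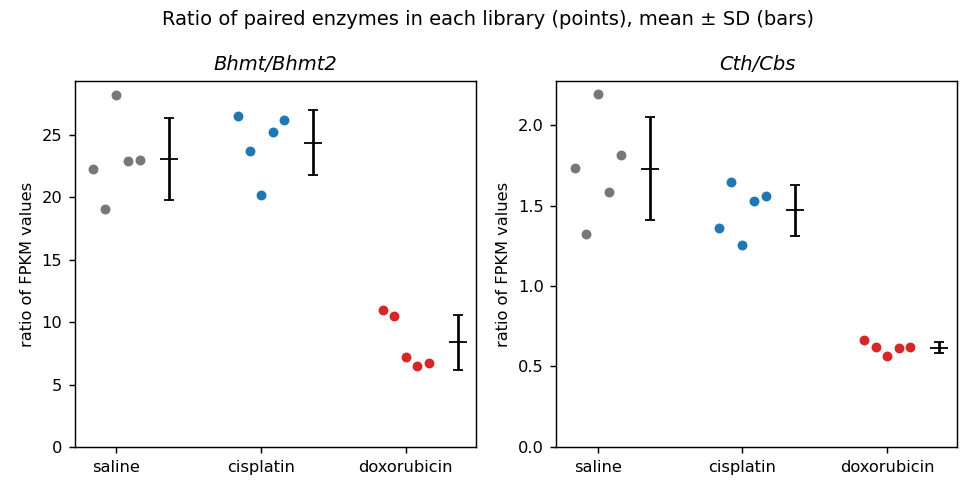
Ratio of the FPKM values of Bhmt to Bhmt2 and of Cth to Cbs (vertical axes, from 0) in each library, by group; points are libraries, and the bar is the mean with the SD (n = 5). The doxorubicin libraries lie at 6.47 to 11.01 and 0.568 to 0.665, below all other libraries.

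Genes around the 10 enzymes were followed in 6 lists. Over all tested genes, 17.2% fell and 14.4% rose after doxorubicin, and 5.0% fell and 6.08% rose after cisplatin. No list was tested against these shares. Among 13 partners of the methionine and betaine reactions, 3 fell after doxorubicin and 0 rose, and the median difference was -0.22. Adk, the adenosine kinase that clears the adenosine released by Ahcy, went from 329.5 ± 21.1 to 248 ± 14.6 FPKM (SD, n = 5 each), a fall of -0.41 ± 0.08 (limma adjusted p = 0.00111). Mat2a, a second methionine adenosyltransferase gene, at 39.4 ± 2.74 FPKM in saline livers (SD, n = 5), fell by -0.41 (limma adjusted p = 0.00454). Ahcyl1, a protein related to Ahcy, fell by -0.48 (limma adjusted p = 0.00397), a call that ended with the replicate number as a block (0.0555). After cisplatin 2 of the 13 fell and 0 rose, with a median of -0.05. Adk was at 248 ± 20.9 FPKM there, a difference of -0.41 ± 0.08 (limma adjusted p = 0.00345).

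Genes that use methyl groups or supply their acceptors went both ways after doxorubicin. Of 12, 3 rose and 5 fell, with a median of -0.15. Inmt, an amine N-methyltransferase, went from 605 ± 45.8 to 189 ± 131 FPKM (SD, n = 5 each), a fall of -1.94 ± 0.33 (limma adjusted p = 0.000289). As3mt, the arsenite methyltransferase, and Hnmt, the histamine methyltransferase, fell by -0.57 and -0.86 (limma adjusted p = 0.000712 and 0.00156). Chka, a choline kinase, rose by 0.79 and Nnmt, the nicotinamide N-methyltransferase, by 0.66 (limma adjusted p = 0.00913 and 0.0098). The calls of Chka and Nnmt ended with the replicate number as a block, and that of Nnmt also without saline 2 and the unnumbered doxorubicin library together. After cisplatin Tpmt, the thiopurine methyltransferase, rose by 0.40 (limma adjusted p = 0.0207). Leaving out saline 4 ended this call (0.0514). The other 11 did not pass.

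Downstream of Cth, 10 of the 12 listed genes of cysteine, taurine and sulfide metabolism were tested. After doxorubicin 4 fell and 0 rose, with a median of -0.14. Got1, the cytosolic aspartate aminotransferase, went from 131 ± 46 to 34.0 ± 8.90 FPKM (SD, n = 5 each), a fall of -1.87 ± 0.21 (limma adjusted p = 7.97e-06). Papss2, which makes the active sulfate donor, fell from 51.6 ± 9.09 to 25.4 ± 5.54 FPKM (-1.01 ± 0.14, limma adjusted p = 4.56e-05). Cdo1, the cysteine dioxygenase that opens the route to taurine, was lower after both drugs. Its means were 1610 ± 149.5 FPKM in saline livers, 1232 ± 95.8 with cisplatin and 1114 ± 106 with doxorubicin (SD, n = 5 each), and its falls were -0.38 ± 0.09 and -0.53 ± 0.09 (limma adjusted p = 0.0132 and 0.000376). The cisplatin call ended with median-ratio scaling (0.0523). Mpst, a sulfurtransferase of sulfide production, rose after cisplatin from 71.5 ± 5.41 to 108 ± 10.3 FPKM (0.59 ± 0.08, limma adjusted p = 0.000207) and was at 72.3 ± 3.68 after doxorubicin. It was the 1 gene of the list that rose after cisplatin, and Cdo1 the 1 that fell.

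Glutathione genes were higher after cisplatin in part. Of 8 tested, 2 rose and 0 fell, and the median was 0.28. Gclc, the catalytic subunit of the enzyme that joins cysteine to glutamate, went from 111 ± 20.6 to 181 ± 23.9 FPKM (SD, n = 5 each; 0.72 ± 0.13, limma adjusted p = 0.00203). Gss, the glutathione synthetase, rose by 0.42 ± 0.09 (limma adjusted p = 0.00811). After doxorubicin 1 of 8 rose, Gss by 0.45 ± 0.09 (limma adjusted p = 0.0017), and 0 fell. Gclc was at 131 ± 15.9 FPKM there. Of 10 tested folate genes, 2 fell after doxorubicin, against 17.2% of all tested genes, and 0 rose. These were Shmt1, the cytosolic serine hydroxymethyltransferase (-0.39 ± 0.10, limma adjusted p = 0.00572), and Mthfd1, a trifunctional folate enzyme (-0.48 ± 0.12, limma adjusted p = 0.00681). After cisplatin 1 rose, Amt of the glycine cleavage system (0.25 ± 0.08, limma adjusted p = 0.0433), a call that ended in 17 of 26 settings, among them without saline 1, 2, 3 or 5, cisplatin 1, 2, 3 or 4, or doxorubicin 2, 3 or 4.

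Polyamine and methionine salvage genes, which use decarboxylated S-adenosylmethionine and recycle its sulfur, rose in part after both drugs. Of 9 tested, 3 rose and 1 fell after doxorubicin, and 2 rose and 0 fell after cisplatin. Srm, the spermidine synthase, had means of 11.4 ± 1.16 FPKM in saline livers, 19.4 ± 5.60 with cisplatin and 27.7 ± 5.85 with doxorubicin (SD, n = 5 each). Its rises were 0.68 ± 0.16 and 1.19 ± 0.16 (limma adjusted p = 0.0106 and 3.47e-05). Odc1, the ornithine decarboxylase, rose by 0.66 ± 0.15 and 0.94 ± 0.15 (limma adjusted p = 0.00961 and 0.000195). Adi1, a dioxygenase of the salvage route, fell after doxorubicin from 93.3 ± 4.20 to 60.3 ± 4.64 FPKM (-0.62 ± 0.08, limma adjusted p = 2.32e-05). The call of Mri1, the methylthioribose isomerase of that route (0.24 ± 0.09, limma adjusted p = 0.0414), ended in 12 of 26 settings, among them without saline 1, 3, 4 or 5, cisplatin 3, doxorubicin 1, 3 or 4, or the unnumbered library.

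Between the drugs, 11.4% of all tested genes were lower after doxorubicin than after cisplatin and 9.0% were higher. Of the 13 partners 2 were lower and 0 higher, with Dmgdh, which demethylates dimethylglycine, at -0.58 (limma adjusted p = 0.00404). Of the 12 methyl group users 3 were higher and 6 lower. Of the 10 tested cysteine, taurine and sulfide genes 5 were lower and 0 higher, with Got1 at -1.80 (limma adjusted p = 2.64e-05), Mpst at -0.57 (0.000138) and Papss2 at -0.97 (0.000146). Among glutathione genes 2 of 8 were lower and 0 higher, Chac2 at -0.67 and Gclc at -0.46 (limma adjusted p = 0.0021 and 0.0186). The Gclc call ended in 3 of 26 settings, with the replicate block (0.0559), without cisplatin 4 and without doxorubicin 2. Of the folate genes 3 of 10 were lower and 0 higher, with Shmt1 at -0.55 (limma adjusted p = 0.000812). Of the 9 polyamine and salvage genes 2 were higher and 1 lower, with Adi1 at -0.61 (limma adjusted p = 5.81e-05).

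**Figure D4:**
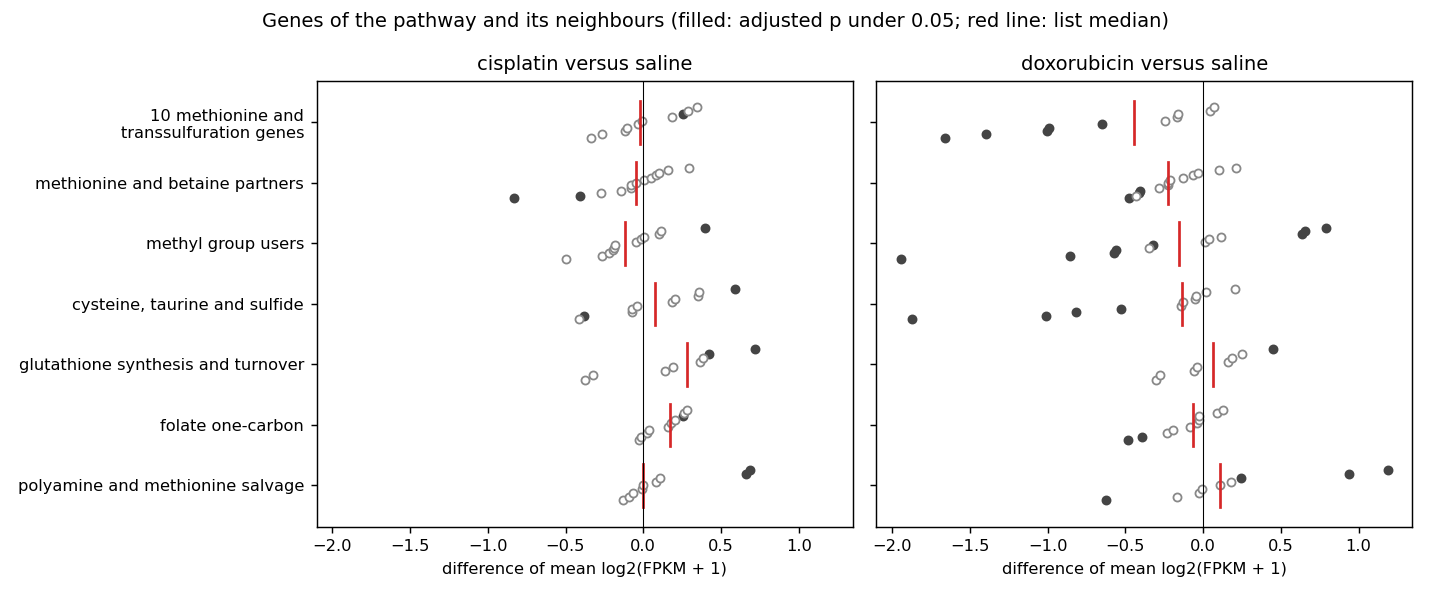
Difference of mean log2(FPKM + 1) from saline (horizontal axis) for the 10 members and the tested genes of 6 neighbouring lists, after cisplatin (left) and doxorubicin (right); each point is a gene, filled where the adjusted p was under 0.05, and the red line is the list median. The member median is -0.02 after cisplatin and -0.45 after doxorubicin, and the glutathione list has medians of 0.28 and 0.06.

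In whole liver, fewer cells of a type and less RNA per cell cannot be told apart, and the levels of several cell type markers moved with the groups. For the counts below, 17.2% of all tested genes fell and 14.4% rose after doxorubicin, and 5.0% fell and 6.08% rose after cisplatin. Of 7 hepatocyte markers, 2 fell and 0 rose after doxorubicin, and their summed level was 54350 to 62410 FPKM after saline, 57520 to 61910 after cisplatin and 45950 to 56600 after doxorubicin. Of 10 markers of pericentral hepatocytes, 4 fell and 1 rose after each drug. Their sum was 6451 to 8195 FPKM after saline, 4744 to 5955 after cisplatin and 2965 to 3650 after doxorubicin. Most of this sum is Cyp2e1, at 5106 ± 676.5 FPKM in saline livers, 3906 ± 489.7 with cisplatin and 1997 ± 210.5 with doxorubicin (SD, n = 5 each), and its cisplatin call ended in 11 of 26 settings, among them without saline 1, 3, 4 or 5 and without cisplatin 1, 2, 3 or 4. The median difference over the 10 markers was -0.49 after cisplatin and -0.30 after doxorubicin, and 0.13 between doxorubicin and cisplatin. Cyp1a2 fell after cisplatin by -0.81 (limma adjusted p = 0.000693), and after doxorubicin its difference was -0.07 (0.711). Oat, the ornithine aminotransferase, went from 729.7 ± 159 to 199.5 ± 33.5 FPKM after doxorubicin, while Glul, the glutamine synthetase, had means of 368 ± 34.9 in saline livers, 241 ± 41.4 with cisplatin and 339 ± 42.5 with doxorubicin (SD, n = 5 each). Of 8 periportal markers, 5 fell and 0 rose after doxorubicin, with sums of 5519 to 6720 FPKM after saline and 3503 to 5259 after doxorubicin, and 0 passed after cisplatin.

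The summed markers of neutrophils, monocytes and Kupffer cells were higher after doxorubicin. The 8 neutrophil markers summed to 4.55 to 8.60 FPKM after saline, 2.96 to 9.58 after cisplatin and 26.4 to 41.3 after doxorubicin. Of the 8, 3 were tested and rose after doxorubicin, where 14.4% of all tested genes rose. Ly6g was at 0 in all saline libraries and reached at most 0.475 FPKM after cisplatin and 0.117 after doxorubicin. Mpo had means of 0.0119 FPKM after saline and 0.01085 after doxorubicin. The 6 monocyte markers summed to 3.96 to 5.39 FPKM after saline and 13 to 26.4 after doxorubicin, and the 8 Kupffer cell markers to 60.2 to 105 and 133 to 212. Of the 6 monocyte markers, 3 were tested and 3 rose after doxorubicin. Of the 8 Kupffer cell markers 7 were tested, and 5 rose and 0 fell. Clec4f and Vsig4 did not pass, with means of 23.4 and 6.29 FPKM after saline and 19.4 and 8.26 after doxorubicin. Sinusoidal endothelial markers summed to 53.1 to 79.5 FPKM after saline, 21.8 to 49.2 after cisplatin and 30.4 to 57.4 after doxorubicin. Lymphocyte, stellate and cholangiocyte markers overlapped between saline and doxorubicin in their sums. For the 5 erythroid markers, the saline libraries had sums of 311 to 512 FPKM, against 35.5 to 56.1 with cisplatin and 44.6 to 275 with doxorubicin. With each drug, 4 of the 5 fell and 0 rose. Alas2 did not pass in either comparison with saline. Its means in the saline, cisplatin and doxorubicin groups were 23.29, 24.6 and 22.96 FPKM. The 5 kidney markers, looked at because kidney shares several of these enzymes, summed to at most 0.203 FPKM in any library, and the 5 pancreas markers to at most 11.5. The part of these shifts in the differences of the 10 enzymes was not tested.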

How the data were processed

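Per the submitters' processing notes, the authors used Trim Galore 0.4.1, HISAT2 2.0.1, featureCounts 1.4.6 and edgeR, and name GRCm38 (mm10). The deposited table holds FPKM values for 21878 genes in 15 libraries, normalised by the authors to gene length and library size. Annotation release, strand setting and treatment of reads matching several genes are not given in the sources used here. Library totals were recovered from the steps of 1 read in low FPKM values and exon lengths of GENCODE M21.

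FPKM was used as deposited. The 10552 genes that reached 1 FPKM in 5 or more libraries were fitted with limma 3.58.1 in R 4.3.3 on log2(FPKM + 1), with group as the term and eBayes moderation, using its trend and robust options. The procedure was checked on simulated data. Alternatives were added values of 0.1 and 0.5, no filter, a mean of at least 5 FPKM, TPM, median-ratio and quantile scaling, only the 2 groups compared, no trend or robust settings, a replicate block, each library left out, and a threshold of 0.01. Ratios were compared with exact permutation tests. Python 3.11.15 was used for tables. Promoter windows came from RefSeq (GRCm38.p6) and 50-base stretches from GENCODE M21 transcripts. Coordinates are those of the RefSeq gene table on GRCm38.p6.

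The members and lists were chosen with earlier results of these data known. Named genes were all members, up to 3 changed genes per direction and list with the smallest adjusted p, and the gene closest to each member by Pearson correlation. The labels do not say that libraries come from separate animals, so p-values measure the spread between libraries. Of the 12 listed cysteine, taurine and sulfide genes, 1 was not found by its symbol. The values of some genes that the rule selects are not reported here.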

Additional observations from a re-analysis of the deposited data

Results flagged for a closer look

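In 6 of 30 sets of 5 libraries (10 members in 3 groups) 1 library lay far from the other 4 by Dixon's criterion, which chance gives in about 1 of 20 sets. Bhmt was at 3168 FPKM in saline 3, above the other saline libraries. Pemt was at 217 FPKM in saline 2, below the others. Ahcy was at 926 FPKM and Mat1a at 1284 FPKM in cisplatin 5, both above the rest of the group. Gnmt was at 835 FPKM and Cth at 149.9 FPKM in doxorubicin 4, the highest of their group.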

How the results depend on the processing

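After doxorubicin, the calls of the 5 members that fell held in all 27 alternatives, and 5 or 6 members were called when 1 library was left out. Between the drugs, 4 of 6 calls held in all alternatives. Gnmt lost its call under the replicate block (adjusted p = 0.086) and at the 0.01 threshold, and Sardh as given above, with 5 to 6 members called when 1 library was left out. For Mtr, 287 to 611 reads per library limit the precision. After cisplatin, the number of changed members was 0 with TPM scaling, quantile normalization, only the 2 groups compared, the replicate block and the 0.01 threshold. It was 0 to 2 when 1 library was left out and 3 without saline 2 and the unnumbered doxorubicin library, an alternative chosen after seeing the data. Over all genes, cisplatin changed 720 to 1241 when 1 library was left out, the lowest without cisplatin 3. At the 0.01 threshold 482 genes changed after cisplatin, 2034 after doxorubicin and 1160 between the drugs. Under the replicate block, which leaves out the unnumbered library, 2168 changed after doxorubicin and 1262 between the drugs; 2 of 13 same-numbered pairs of libraries had a correlation above 0.1, and a library was closest to its own number in 5 of 28 sets, so the numbers were not taken as pairs.

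Signs turned only in differences that did not pass. After cisplatin Mat1a was at 0.0256 with median-ratio scaling and -0.0656 to 0.0703 with 1 library left out, Gnmt at -0.40 to 0.0314 and Cth at -0.20 to 0.039. After doxorubicin Cbs ranged from -0.00644 to 0.14 and Pemt from -0.0636 to 0.11, with Pemt at -0.0868 without saline 2 and the unnumbered library. Mtr between the drugs was 0.0118 with the replicate block and -0.086 to 0.0153 with 1 library left out. Median differences over all genes stayed within 0.1 under each scaling.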

Other observations

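Gene patterns over the 15 libraries were compared with those of the members by Pearson correlation of log2(FPKM + 1), group differences included, as a description without a test. The gene closest to Bhmt was Hsd17b10, a mitochondrial dehydrogenase of isoleucine breakdown, with r = 0.969. Its means were 249.8 FPKM with saline, 302 with cisplatin and 134 with doxorubicin. Closest to Cth was Etnppl, the phospholyase of phosphoethanolamine, with r = 0.976 and 70.4, 57.5 and 13.97 FPKM. Closest to Gnmt was Cisd1, an iron-sulfur protein of the outer mitochondrial membrane (r = 0.953), and closest to Ahcy was Enpp2, the secreted lysophospholipase D (r = 0.956). For Pemt it was Slc25a1, the mitochondrial citrate carrier (r = 0.909), at 91.0, 121 and 94.0 FPKM, and for Bhmt2 it was the nuclear receptor gene Nr5a2 (r = 0.933), at 12.04, 14.9 and 10.2 FPKM. Sardh was closest to Colec12 (r = 0.949), Mtr to Smad5 (r = 0.879), Cbs to Adgrf1 (r = 0.859) and Mat1a to Ubxn6 (r = 0.856). Among the members themselves, Gnmt and Sardh were each other's closest (r = 0.913), and so were Cbs and Pemt (r = 0.702). Cth with Gnmt and Ahcy with Sardh were nearly as close as Gnmt with Sardh (r = 0.894 each).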
